A study of Mus musculus with 17 samples.

Results

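Transcripts that mark T lymphocytes and natural killer (NK) cells were followed in RNA-seq of sorted mouse liver Kupffer cells (KCs), macrophages that reside in the liver sinusoids. The set held 10 genes, found by symbol among the 25124 rows of each of the 3 deposited tables: *Cd3d*, *Cd3e*, *Cd3g*, *Cd2*, *Nkg7*, *Gzma*, *Gzmb*, *Prf1*, *Klrb1c* and *Ncr1*. All 10 were listed in every table, and the rule uses symbols only. The 17 samples fell into 6 groups. TIM4+CD206+ KCs gave 3 samples from untreated tumour-free mice and 3 from mice in which KPC tumour had been injected into the portal vein 2 weeks earlier, and TIM4+CD206hi KCs gave 3 and 3 samples of the same kinds. The remaining 5 samples were KCs of untreated mice, 3 from Id3f/f mice, whose *Id3* gene is flanked by recombination sites, and 2 from Clec4fCreId3f/f mice, in which Cre driven from the KC gene *Clec4f* deletes *Id3*. *Clec4f* comes on after birth, so that this model deletes the gene in KCs already formed, and both groups carry the floxed allele. Ages were not given in the labels, and the labels do not say whether replicates of one number share an animal.

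T cells carry an antigen receptor that signals through the CD3 chains, and both T and NK cells kill by releasing granules of perforin and granzymes onto a target. NK cells are abundant in liver sinusoids, where they lie next to KCs. The sort for the CD206 subsets took CD45+F4/80+TIM4+ cells and gated out, among others, cells with surface CD3, NKp46 (the product of *Ncr1*) or Ly6G. The CD3 and NKp46 gates act on protein of several of the genes described here, and transcripts of these genes in the sorted fraction were therefore measured against an active exclusion.

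ID3, the product of the deleted gene, holds back E proteins, transcription factors that bind the letters CANNTG (the E-box) and that drive many genes of the T lineage. The promoters of the 3 CD3 genes and of *Nkg7*, the gene with the top level per length in every tumour-free or Id3f/f group, are printed for this reason. Each runs from 250 bases before to 50 bases after the RefSeq start site on GRCm38.p6, reads 5′ to 3′ on the strand of the gene, and has every CANNTG in capitals. *Cd3g* lies at chr9:44980382-44980681 on the minus strand, *Cd3d* at chr9:44981536-44981835 on the plus strand, *Cd3e* at chr9:45009562-45009861 on the minus strand and *Nkg7* at chr7:43436888-43437187 on the plus strand.
Cd3g: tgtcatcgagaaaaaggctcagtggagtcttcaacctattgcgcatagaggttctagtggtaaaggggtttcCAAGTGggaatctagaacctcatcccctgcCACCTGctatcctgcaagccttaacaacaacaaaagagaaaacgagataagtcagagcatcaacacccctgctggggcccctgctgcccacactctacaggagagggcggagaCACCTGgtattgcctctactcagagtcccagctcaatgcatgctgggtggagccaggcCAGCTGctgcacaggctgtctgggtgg
Cd3d: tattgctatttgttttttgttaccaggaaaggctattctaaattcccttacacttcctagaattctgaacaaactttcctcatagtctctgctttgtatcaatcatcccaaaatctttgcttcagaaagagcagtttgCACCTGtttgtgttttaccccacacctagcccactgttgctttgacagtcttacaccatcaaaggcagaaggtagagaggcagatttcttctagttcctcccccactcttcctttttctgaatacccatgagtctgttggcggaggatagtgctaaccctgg
Cd3e: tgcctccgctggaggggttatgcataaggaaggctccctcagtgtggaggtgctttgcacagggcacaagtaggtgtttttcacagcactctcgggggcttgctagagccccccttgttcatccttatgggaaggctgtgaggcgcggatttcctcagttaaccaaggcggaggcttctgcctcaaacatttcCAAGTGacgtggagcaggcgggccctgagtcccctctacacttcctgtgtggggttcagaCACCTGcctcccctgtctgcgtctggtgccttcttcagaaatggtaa
Nkg7: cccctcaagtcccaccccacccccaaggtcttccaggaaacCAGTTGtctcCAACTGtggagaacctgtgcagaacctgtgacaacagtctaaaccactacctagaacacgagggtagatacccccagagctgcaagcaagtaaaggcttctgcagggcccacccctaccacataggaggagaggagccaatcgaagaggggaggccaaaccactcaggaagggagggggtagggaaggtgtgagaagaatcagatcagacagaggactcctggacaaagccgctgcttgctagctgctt
*Cd3g* and *Cd3d* point away from each other with start sites 1355 bases apart, and the start of *Cd3e* lies 27825 bases from that of *Cd3d*. The window of *Cd3g* held 4 E-boxes, that of *Cd3d* 1, and those of *Cd3e* and *Nkg7* 2 each. RefSeq gave a promoter for 9 of the 10 genes, and all 9 held at least 1 CANNTG, which reads the same on both strands. This letter pattern is common, being present in 72.3% of 32851 promoters of the same length. The stricter form CAGCTG, also its own reverse complement, was in 2 of the 9 and in 16.3% of all promoters. A match of letters is a description of the window and not a measured binding site.

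Values in the tables are regularized log2 values, which follow the counts of a gene but draw genes with few reads towards their mean over the samples of the table. Each table was transformed on its own, so groups were tested within a table only, and levels from different tables are set side by side without a test. A difference of 1 is a doubling on this scale, and shrinkage makes it understate the change in reads of low genes. A gene was tested when its value reached log2 of 10, or 3.32, in as many samples as the smaller group holds, and it was called when the limma p, adjusted by Benjamini-Hochberg over all genes tested, was under 0.05. Within these limits the KC gene *Clec4f* was high in all 6 groups. *Clec4f* values were 16.1 or more in every sample, and the targeted gene *Id3* went from 12.58, 12.46 and 12.82 in Id3f/f to 9.83 and 9.82 in Clec4fCreId3f/f KCs (log2 difference −2.80, SE 0.11, adjusted p = 1.40e-06). *Clec4f* itself, whose locus drives the Cre, was lower in the same samples (−1.52, SE 0.06, adjusted p = 1.80e-06). Endothelial transcripts were high in tumour-free CD206hi KCs. There the linear values of 8 endothelial markers summed to 150302 to 239040, and those of 12 KC markers to 871372 to 1306380. In tumour-free CD206+ KCs these sums were 16294 to 28556 and 1636810 to 2273810. Deposited values summed on the linear scale to 34080852 to 39676440 per sample in the CD206+ table, 32641263 to 35096456 in the CD206hi table and 21815438 to 24042499 in the *Id3* table. These sums reflect normalized values, and the read totals of single libraries are not recoverable from them.

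All 10 transcripts were low next to KC genes. Levels of different genes were compared per kilobase of exon, as the group mean of the log2 value minus log2 of exon length. In tumour-free CD206+ KCs the order of these levels was *Nkg7* (10.28), *Gzma* (9.95), *Cd2* (8.08), *Gzmb* (8.03), *Cd3d* (7.43), *Cd3g* (6.66), *Ncr1* (6.63), *Klrb1c* (6.50), *Cd3e* (6.37) and *Prf1* (5.95). *Nkg7*, a granule membrane protein of NK and cytotoxic T cells, and *Gzma*, a granzyme, stood above the rest, and they did not differ from each other beyond their SD between samples (0.60 and 0.79, n = 3). The 5 genes from *Cd3g* to *Prf1* also lay within the SD of 0.73 that *Prf1* had. On the same scale *Clec4f* reached 17.98, so that *Nkg7* lay 7.70 log2 units and *Prf1* 12.03 below it.

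The order was similar in tumour-free CD206hi KCs, where *Nkg7* (9.73), *Gzma* (8.95) and *Gzmb* (7.90) led per kilobase and *Cd3e* (5.93) and *Prf1* (5.66) came last. In Id3f/f KCs *Nkg7* (7.71), *Gzma* (7.03) and *Gzmb* (6.61) led again, followed by *Cd3g* (4.92), and *Prf1* stood at 1.46. *Prf1*, which encodes the pore-forming perforin, was the member nearest to the limit of detection. Its values in the *Id3* table were 2.84, 2.85 and 2.81 in Id3f/f and 2.84 and 2.84 in Clec4fCreId3f/f KCs. All 5 were under the filter and nearly equal (SD 0.02 in Id3f/f KCs), and *Prf1* was not tested there. The other 9 passed the filter in each table, but in the *Id3* table *Cd3d*, *Ncr1* and *Cd2* ranked low by mean level, above 12.3%, 13.9% and 14.3% of the genes tested.

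In CD206+ KCs, the mean of each of the 10 transcripts was lower in tumour-bearing than in tumour-free mice, and none passed the test after adjustment over all genes. Of the 13233 genes tested, 3.54% were called, made up of 0.998% lower and 2.55% higher, and the mean was lower in 47.9%. The median log2 difference of the 10 was −0.54, against 0.02 for all genes tested. At an unadjusted p under 0.05, 3 of 10 were lower, against 7.84% of all genes. Values of 4 of the 10 were lower without overlap between groups, against 10.5% of all genes.

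Among the receptor chains, *Cd3e* encodes the CD3 epsilon chain that starts signalling from the T cell receptor. Its values were 8.71, 8.02 and 8.46 in tumour-free CD206+ KCs and 7.02, 7.31 and 7.85 in tumour-bearing ones. Each tumour-bearing sample was under each tumour-free sample, with a log2 difference of −1.004 (SE 0.30, limma adjusted p = 0.131). *Cd3g*, the gamma chain, was 8.46, 8.29 and 8.37 without tumour and 7.97, 7.98 and 7.94 with it. The groups did not overlap and the samples of each lay close together, but the difference of −0.41 (SE 0.21) had an adjusted p of 0.375 in limma. *Cd3d*, the delta chain, was 8.86, 7.75 and 8.26 without tumour and 7.91, 7.88 and 8.22 with it, and these groups overlapped (−0.28, SE 0.31, limma adjusted p = 0.725). *Cd2*, an adhesion receptor of T and NK cells, was 9.06, 8.85 and 8.73 against 8.62, 8.16 and 8.20. The groups of *Cd2* stayed apart by a narrow margin, and the difference was −0.55 (SE 0.23, limma adjusted p = 0.264).

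Among the granule genes of CD206+ KCs, *Nkg7* was 10.68, 9.50 and 10.27 without tumour and 9.33, 9.49 and 9.41 with it. The lowest tumour-free and the highest tumour-bearing sample almost touched (−0.75, SE 0.29, limma adjusted p = 0.241). *Gzma* was 10.56, 9.06 and 10.25 without tumour against 9.38, 9.74 and 9.53. *Gzmb*, the granzyme that cleaves caspases in the target cell, was 9.10, 7.55 and 8.99 against 7.67, 7.99 and 8.25. Both granzymes showed the same layout, in which tumour-free replicate 2 lay under all tumour-bearing samples while the other two tumour-free samples lay above them. Their differences were −0.41 (SE 0.36, adjusted p = 0.654) and −0.58 (SE 0.42, adjusted p = 0.552) in limma. *Prf1* was 8.16, 6.85 and 6.94 against 5.32, 7.34 and 6.76, with the widest spread of the 10 and no separation (−0.84, SE 0.55, adjusted p = 0.510 in limma).

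The NK receptors of the set were *Klrb1c*, which encodes NK1.1, and *Ncr1*, which encodes NKp46. *Klrb1c* was 7.86, 8.17 and 8.15 in tumour-free and 7.90, 7.61 and 7.70 in tumour-bearing CD206+ KCs (−0.32, SE 0.23, limma adjusted p = 0.544). *Ncr1* was 7.43, 6.68 and 7.64 against 7.05, 6.36 and 6.76 (−0.52, SE 0.33, limma adjusted p = 0.484). In both genes 1 tumour-free sample reached into the tumour-bearing range. Reads of *Klrb1c* may be split with its near relatives in the *Klrb1* family and with *Gm44511*, an annotated gene that overlaps it on the same strand. Likewise *Cd3e* overlaps the antisense gene *Gm48719* and, on its own strand, the annotated gene *Gm48720*. The amplification used for these libraries does not mark the strand.

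**Figure D1:**
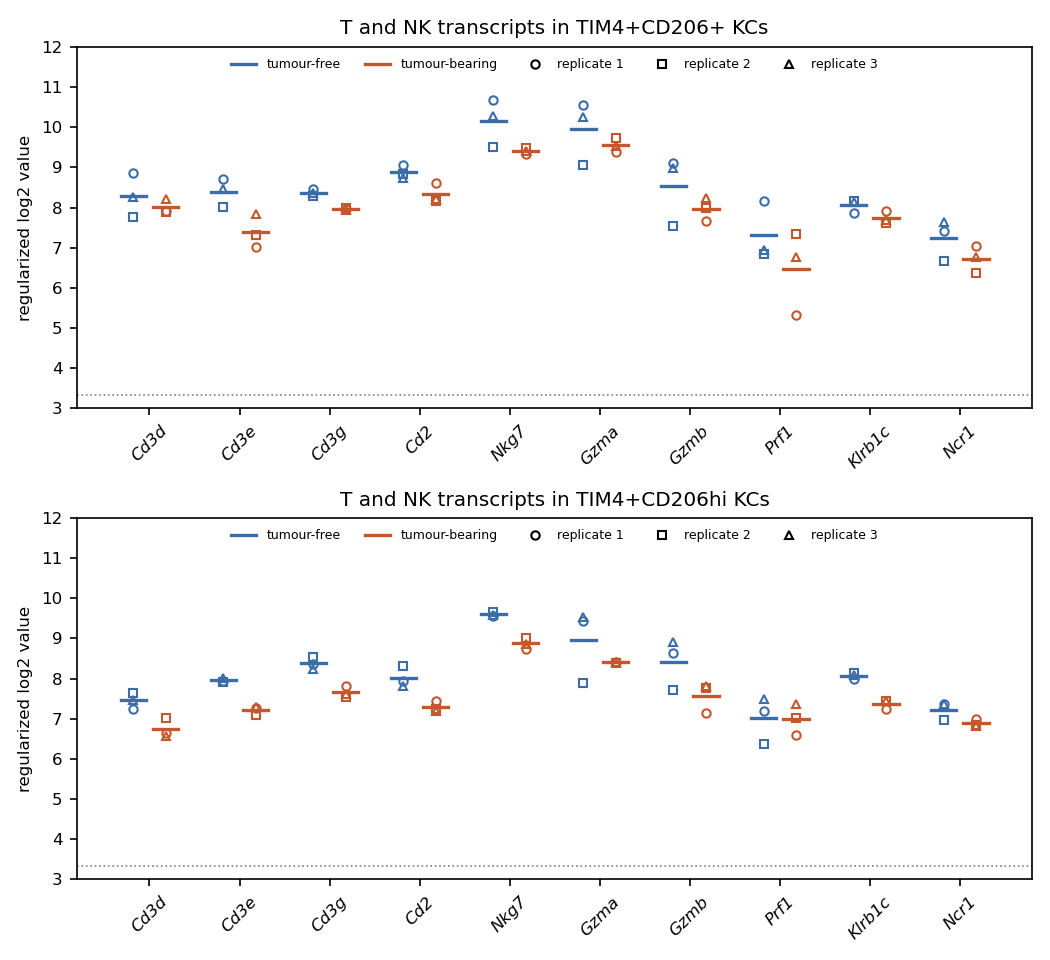
Regularized log2 values (vertical axis) of the 10 T and NK transcripts in CD206+ KCs (upper panel) and CD206hi KCs (lower panel), with tumour-free samples in blue and tumour-bearing samples in orange. Symbols are single samples by replicate number, bars are group means (n = 3) and the dotted line is the filter at 3.32. In CD206hi KCs 6 genes separate fully, while replicate 2 of the tumour-free mice is low for *Gzma* and *Gzmb* in both panels.

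In CD206hi KCs, too, the mean of each of the 10 was lower with tumour and none passed the adjusted test, although the separation was cleaner. Of 14561 genes tested, 7.23% were called, 2.03% lower and 5.21% higher, and the mean was lower in 47.7%. Here 6 of the 10 were lower without overlap between the groups, against 15.2% of all genes, and the same number had an unadjusted p under 0.05 and a lower mean, against 8.57%. The median difference of the 10 was −0.71, against 0.03 for all genes tested.

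The 6 genes that separated fully in CD206hi KCs were the 3 CD3 chains, *Cd2*, *Nkg7* and *Klrb1c*, and their differences lay between −0.70 and −0.73. *Nkg7* was 9.57, 9.65 and 9.57 without tumour and 8.74, 9.02 and 8.86 with it. The gap between the groups was wider than the range within either, and the adjusted p was 0.0535 in limma (−0.72, SE 0.17). *Cd3e* was 7.93, 7.91 and 8.02 against 7.26, 7.10 and 7.30, also with a gap wider than either range (−0.73, SE 0.19, limma adjusted p = 0.0661). *Klrb1c* was 7.99, 8.14 and 8.09 against 7.25, 7.43 and 7.44 (−0.70, SE 0.19, limma adjusted p = 0.0785). *Cd3g* was 8.37, 8.53 and 8.24 against 7.82, 7.54 and 7.62 (−0.72, SE 0.20, limma adjusted p = 0.0828). Both receptors separated with a margin wider than the range within either group. *Cd2* was 7.95, 8.30 and 7.81 against 7.43, 7.25 and 7.20 (−0.72, SE 0.22, limma adjusted p = 0.108). *Cd3d* was 7.26, 7.65 and 7.46 against 6.65, 7.03 and 6.57 (−0.71, SE 0.23, limma adjusted p = 0.129). For *Cd2* and *Cd3d* the margin was narrower than the range of the tumour-free samples.

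The other 4 genes overlapped between the CD206hi groups. *Gzma* was 9.43, 7.90 and 9.54 without tumour and 8.42, 8.39 and 8.41 with it, so that replicate 2 again fell under all tumour-bearing samples (−0.55, SE 0.43, limma adjusted p = 0.482). *Gzmb* was 8.64, 7.71 and 8.91 against 7.14, 7.78 and 7.82, with replicate 2 inside the tumour-bearing range (−0.84, SE 0.36, limma adjusted p = 0.242). The granzymes thus had a split tumour-free group where the CD3 chains had a tight one. *Ncr1* was 7.36, 6.96 and 7.36 against 6.99, 6.84 and 6.82 (−0.34, SE 0.21, limma adjusted p = 0.385). *Prf1* was 7.21, 6.38 and 7.49 against 6.60, 7.02 and 7.38, with means of 7.03 and 7.001 (95% interval of the difference −0.85 to 0.80).

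Side by side, the log2 difference with tumour was −1.004 in CD206+ and −0.73 in CD206hi KCs for *Cd3e*, −0.75 and −0.72 for *Nkg7*, −0.28 and −0.71 for *Cd3d* and −0.84 and −0.02 for *Prf1*. Whether the change differs between the subsets was not tested, because the tables were transformed separately. The SE was smaller in CD206hi KCs for 9 of the 10 genes, the exception being *Gzma*. In bulk RNA of a sorted fraction, fewer cells of a type and less RNA per cell cannot be told apart.

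**Figure D2:**
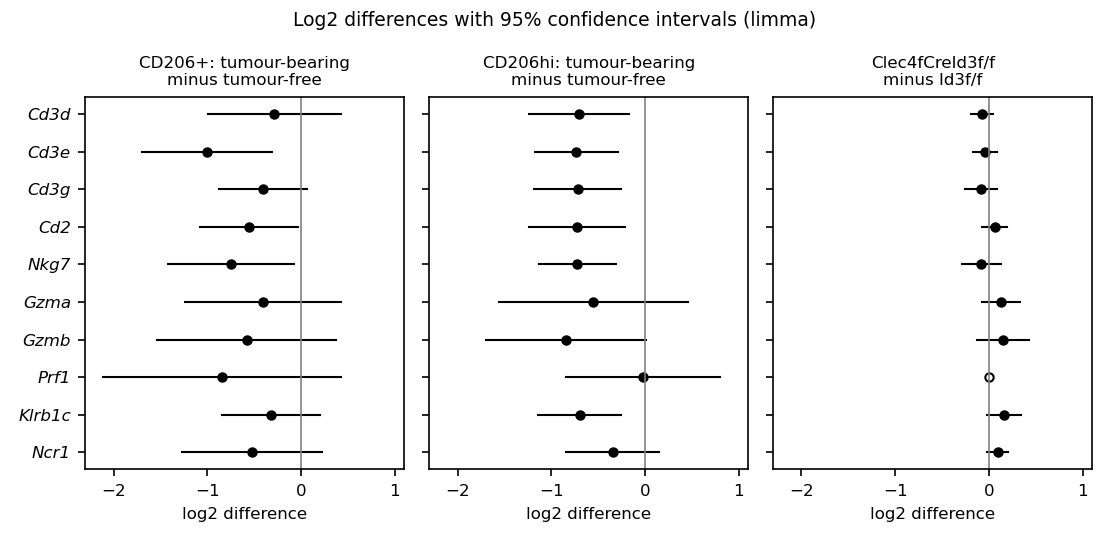
Log2 difference (horizontal axis) of each transcript with its 95% confidence interval from limma, for tumour-bearing minus tumour-free CD206+ KCs (n = 3 and 3), the same in CD206hi KCs (n = 3 and 3), and Clec4fCreId3f/f minus Id3f/f KCs (n = 2 and 3). All points are left of 0 in the tumour panels and those of the right panel lie between −0.09 and 0.16; the open circle is *Prf1*, which was under the filter and has no interval.

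Deletion of *Id3* left these transcripts within a narrow range. Of the 9 genes tested, 4 had a lower and 5 a higher mean in Clec4fCreId3f/f than in Id3f/f KCs, with differences from −0.09 to 0.16. None was called by limma, and none had an unadjusted p under 0.05, while 6.44% of 12833 genes were called, 3.37% lower and 3.08% higher, the mean was lower in 49.6%, and 23.6% had an unadjusted p under 0.05. Adjusted p ran from 0.260 for *Klrb1c* to 0.715 for *Cd3e*. The 95% intervals of the 9 genes lay between −0.29 and 0.43 on the shrunken scale. Values in this table were drawn together at low levels, as the 3933 genes with a mean of 5 to 8 had a median SD within groups of 0.08 and a median difference of 0.07 in size, and 1.55% of them were called. Among the 1789 genes at 11 or more, 19.4% were called.

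*Klrb1c* was 6.23, 6.28 and 6.34 in Id3f/f and 6.34 and 6.54 in Clec4fCreId3f/f KCs (0.16, SE 0.08, limma adjusted p = 0.260). *Ncr1* was 5.20, 5.25 and 5.28 against 5.29 and 5.38 (0.09, SE 0.05, limma adjusted p = 0.316). *Gzma* was 7.13, 7.09 and 6.90 against 7.13 and 7.21 (0.13, SE 0.09, limma adjusted p = 0.451). In these 3 the deleted samples were the higher ones by a small margin, a layout present in 20.2% of all genes tested. *Cd3g* was 6.72, 6.57 and 6.59 against 6.51 and 6.57 (−0.09, SE 0.08, limma adjusted p = 0.546), lower without overlap, a layout found in 21.7% of all genes.

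The groups overlapped in the remaining genes. *Cd3d* was 5.15, 5.14 and 5.02 against 5.01 and 5.05 (−0.07), and *Cd3e* was 5.69, 5.65 and 5.57 against 5.61 and 5.58 (−0.04). *Cd2* was 5.37, 5.35 and 5.21 against 5.33 and 5.42 (0.06). *Nkg7* was 7.70, 7.51 and 7.52 against 7.51 and 7.48 (−0.08), and *Gzmb* was 7.37, 7.12 and 6.90 against 7.30 and 7.25 (0.15). In each of them the range of the 3 Id3f/f samples was wider than the difference, and *Gzmb* had the widest SD there (0.24).

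**Figure D3:**
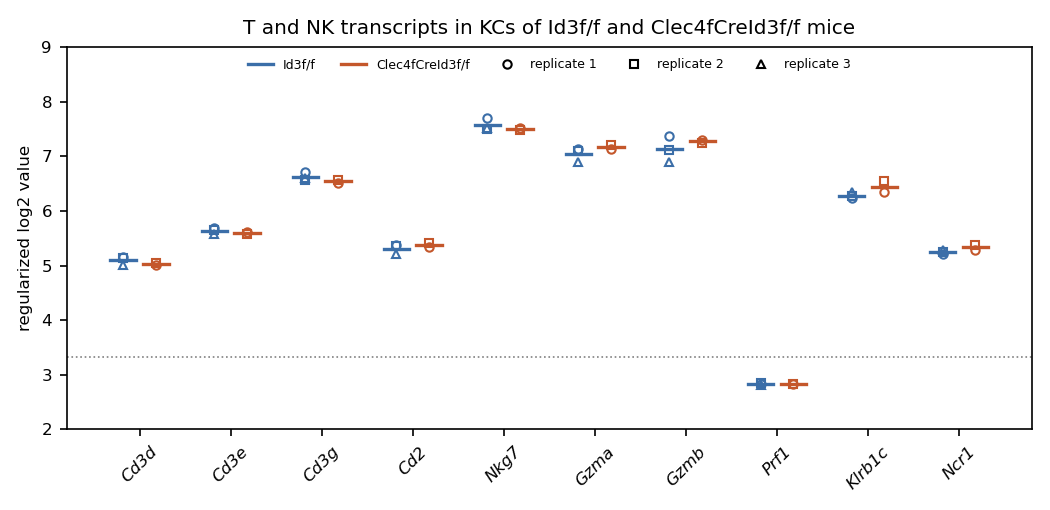
Regularized log2 values (vertical axis) of the 10 transcripts in KCs of Id3f/f mice (blue, n = 3) and Clec4fCreId3f/f mice (orange, n = 2). Symbols are samples by replicate number, bars are group means and the dotted line is the filter at 3.32, under which all *Prf1* values fall.

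Id3f/f KCs held less of these transcripts in the mean than the tumour-free subsets, as a share in ppm of the linear sum of each sample. *Nkg7* was at 31.6 ppm in tumour-free CD206+, 22.5 in tumour-free CD206hi and 8.05 in Id3f/f KCs. *Cd3e* was at 9.12, 7.20 and 2.10 ppm in the same groups. *Gzmb* was at 10.9, 10.5 and 5.93 ppm, and its samples overlapped. They ran from 5.50 to 13.9 in tumour-free CD206+, 6.10 to 13.7 in tumour-free CD206hi and 5.08 to 6.87 in Id3f/f KCs. The *Gzmb* mean was 7.08 ppm in Clec4fCreId3f/f, 7.32 in tumour-bearing CD206+ and 5.93 in tumour-bearing CD206hi KCs. The mean of each of the 10 was lower in Id3f/f than in both tumour-free subsets. The log2 ratios ran from −0.83 (*Gzmb*, to CD206hi) to −3.94 (*Prf1*, to CD206+), and these ratios across tables were not tested. *Icos* and *Klrk1* did not share this layout, as their level in Id3f/f KCs lay between those of the tumour-free subsets. *Icos*, an inducible costimulator of T cells, was at 58.7, 72.7 and 64.6 ppm, and *Klrk1*, which encodes the activating receptor NKG2D, was at 54.0, 105 and 94.1 ppm. *Cd4*, the coreceptor of helper T cells, was lower in Id3f/f KCs, at 16.9, 18.5 and 12.9 ppm, with log2 ratios of −0.39 and −0.52. *Lck*, the kinase that phosphorylates CD3 chains, and *Il2rb*, a chain of the interleukin-2 and interleukin-15 receptors, were lower in the *Id3* table as the CD3 chains were, at 32.9, 22.1 and 3.81 and at 40.1, 32.1 and 6.11 ppm.

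The wider T and NK programme was read from 3 lists of 68 genes in all, on T cell receptor signalling and identity, NK receptors and regulators, and cytotoxic effectors and lymphocyte cytokines. In CD206+ KCs 50 of the 68 were tested, and 39 had a lower and 11 a higher mean with tumour. Their median difference was −0.31, against 0.02 for all genes. The lists were unlike. The T cell list had 19 lower and 1 higher mean (median −0.44) and the cytotoxic list 9 and 1 (−0.24). The NK list had 11 lower and 9 higher means, with a median of −0.03, close to that of all genes. Of the 50, 1 was called lower and 2 higher. Over all genes tested 0.998% were called lower and 2.55% higher, and the mean was lower in 47.9%. *Icos* fell by 1.02 on the log2 scale (SE 0.19, limma adjusted p = 0.0237), from 11.26, 11.07 and 10.95 to 10.25, 9.82 and 10.14. The samples of *Icos* did not overlap between the groups. *Sh2d1b1*, an adaptor of NK receptors of the SLAM family, rose by 1.82 (SE 0.29, limma adjusted p = 0.0139), from 6.52, 5.97 and 6.85 to 8.36, 8.42 and 8.01. *Srgn*, the granule proteoglycan serglycin that many myeloid cells also make, rose by 0.74 (SE 0.16, limma adjusted p = 0.0473).

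The model of this table was also fitted with the replicate number (a block). Pairing by this number was read from these values alone, and no label gives it. Calls with the block therefore rest on a structure taken from the values they test. With the block 7 genes of the lists were lower and 3 higher at an adjusted p under 0.05 in limma. Calls over all 13233 genes rose as well, from 132 lower and 337 higher to 409 lower (3.09%) and 617 higher. The lower ones were *Icos*, *Il2rb*, *Klrk1*, *Serpinb9*, *Cd160*, *Cd6* and *Tcf7*, with differences of −1.06 to −0.68, and the higher ones were *Sh2d1b1*, *Cd244a* and *Srgn*. *Cd160*, *Cd6* and *Tcf7* were named after their values were seen. *Klrk1*, at 10.98, 10.88 and 11.08 without tumour and 10.08, 10.26 and 10.55 with it, and *Serpinb9*, an inhibitor of granzyme B, at 10.92, 10.24 and 10.56 against 9.61, 9.64 and 9.96, did not pass without the block (adjusted p = 0.0905 and 0.0903 in limma). *Lck* at 10.23 ± 0.51 (SD, n = 3) against 9.47 ± 0.42 and *Cd4* at 9.29 ± 0.25 against 8.68 ± 0.65 were lower in mean with overlapping samples and were not called (limma adjusted p = 0.258 and 0.417). Of the 10 members none was called with the block.

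In CD206hi KCs 61 of the 68 were tested, 40 lower and 21 higher in mean, with a median of −0.23. By list, 14 were lower and 10 higher for T cells (median −0.22), 19 and 9 for NK receptors (−0.18). The cytotoxic list had 7 lower and 2 higher (−0.28). Of the 61, 2 were called lower and 3 higher. Over all genes tested 2.03% were called lower and 5.21% higher, and the mean was lower in 47.7%. *Il2rb* fell by 0.95 (SE 0.17, limma adjusted p = 0.0180), from 10.13, 10.11 and 10.10 to 9.26, 8.96 and 9.26. *Klrc1*, which encodes the inhibitory receptor NKG2A, fell by 1.44 (SE 0.34, limma adjusted p = 0.0490), from 9.01, 9.51 and 10.25 to 8.28, 7.82 and 8.34. Both separated fully, with an SD of 0.01 for *Il2rb* in tumour-free samples. The genes that rose were *Itga2* (2.54, limma adjusted p = 0.0158), which encodes the integrin chain CD49b of NK cells and platelets, *Klrb1b* (1.29, adjusted p = 0.0340), an inhibitory NK receptor of the family of *Klrb1c*, and *Sh2d1b1* (1.51, adjusted p = 0.0457). In CD206+ KCs the difference of *Itga2* was 0.39 and was not called (limma adjusted p = 0.369). All 7 epithelial markers tested were called higher in CD206hi KCs and in CD206+ KCs, against 5.21% and 2.55% of all genes. Which cells gave the *Itga2* reads was not tested. *Klrb1b* rose in CD206hi KCs while its neighbour *Klrb1c* had a lower mean, and reads shared between these relatives make both values uncertain.

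Of the 68 genes, 34 passed the filter in the *Id3* table, 18 with a lower and 16 with a higher mean, and 2 were called, both lower. Over all genes tested 3.37% were called lower and 3.08% higher, and the mean was lower in 49.6%. *Klrk1* fell by 0.47 (SE 0.09, limma adjusted p = 0.0169), from 11.15, 11.06 and 11.16 in Id3f/f to 10.65 and 10.67 in Clec4fCreId3f/f KCs. *Srgn* fell by 0.83 (SE 0.09, limma adjusted p = 0.00155), from a mean of 13.09 to one of 12.25, without overlap. *Icos* (10.57 ± 0.25, SD, n = 3, against 10.65 ± 0.06, n = 2), *Cd4* (8.26 ± 0.13 against 8.48 ± 0.10), *Lck* and *Il2rb* were not called.

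In 1 group the samples differed from each other in the mean over the members. In tumour-free CD206+ KCs, the mean deviation of the members from their group mean was 0.31 in replicate 1, −0.45 in replicate 2 and 0.14 in replicate 3. In all other samples this mean was between −0.15 and 0.10. *Klrb1c* did not follow the mean in tumour-free CD206+ KCs, with deviations of −0.20, 0.11 and 0.09 in replicates 1 to 3. *Cd2* deviated by only −0.03 in replicate 2 there. In replicate 2 of that group *Gzma* deviated by −0.90 and *Nkg7* by −0.65, with *Gzmb* lower still, and in replicate 2 of tumour-free CD206hi KCs *Gzma*, *Gzmb* and *Prf1* deviated by −1.05, −0.71 and −0.64. *Cd3d*, *Cd3g*, *Cd2*, *Nkg7* and *Klrb1c* were at their highest in that same CD206hi sample. Without replicate 2 of the tumour-free CD206+ group, *Gzma*, *Gzmb* and *Nkg7* were called lower with tumour by limma, at differences of −0.86, −1.08 and −1.07 (adjusted p = 0.0380, 0.0418 and 0.0167). Lower calls over all genes went from 0.998% to 4.50% in the same setting. Over the 12 alternatives the adjusted p of these genes reached 0.932, 0.841 and 0.512. Without replicate 2 of the tumour-free CD206hi group, 5 members were called lower, namely *Cd3e*, *Gzma*, *Gzmb*, *Klrb1c* and *Nkg7*, and without replicate 3 of that group *Cd3g* and *Nkg7* were. Lower calls over all genes were 7.38% and 2.99% in these settings, against 2.03% with every sample.

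**Figure D4:**
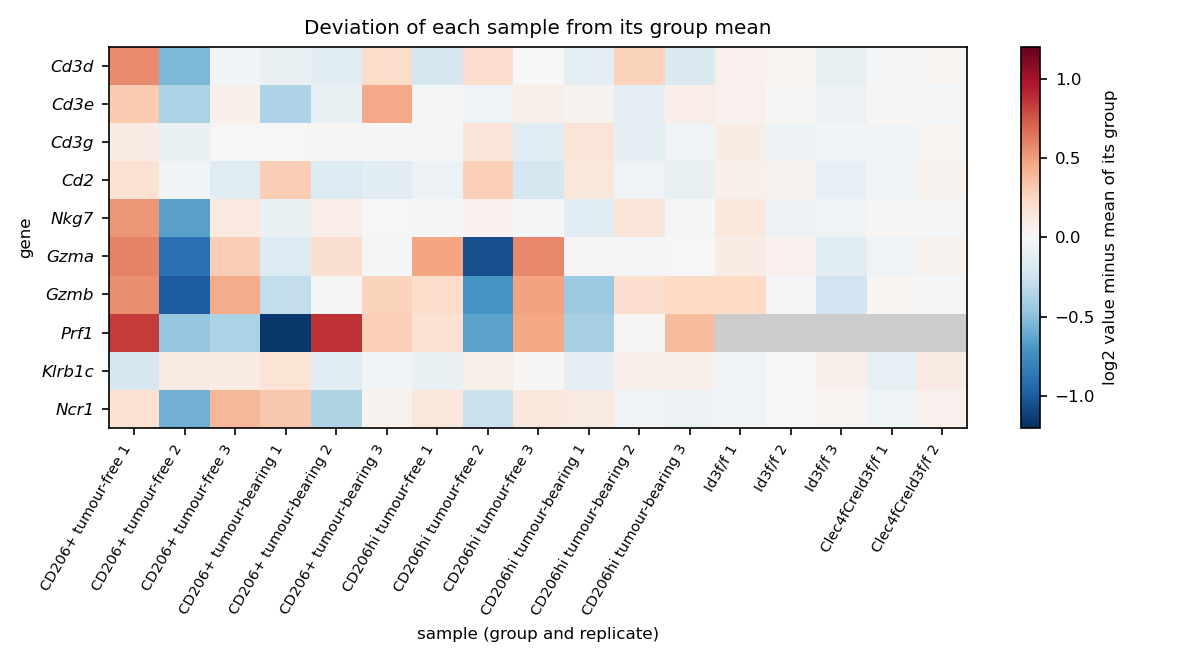
Log2 value minus the mean of its group (colour scale) for each of the 10 transcripts (rows) in each of the 17 samples (columns). Replicate 2 of both tumour-free groups is low for *Gzma* and *Gzmb*, the 5 samples of the *Id3* table stay close to 0, and grey marks *Prf1*, which was under the filter in that table.

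Over all 17 samples, the genes whose group-centred values were most like the mean of the 9 members that passed the filter in all tables were *Ifi35* (r = 0.98), *Rfxank* (0.98), *Psmb9* (0.97), *Ssb* (0.97) and *Got2* (0.96), of 12213 genes compared. *Psmb9* encodes a subunit of the immunoproteasome and *Rfxank* a factor for transcription of MHC class II genes. These correlations compare genes measured in the same libraries, and 3 tumour-free CD206+ samples carried most of the spread. Over the other 14 samples r was 0.90, 0.88, 0.95, 0.82 and 0.80. Of the lists, the cytotoxic one had r = 0.92 over 17 samples and 0.81 over 14, the endothelial one 0.85 and 0.70, and the B cell one −0.93 and −0.86. The T cell and NK receptor lists had r = 0.58 and 0.33 over 17 samples, and −0.23 and −0.14 over 14. Over 17 and 14 samples r was 0.68 and 0.20 for hepatocyte, 0.60 and 0.52 for KC and 0.58 and 0.58 for neutrophil markers. It was 0.49 and −0.30 for monocyte, −0.50 and −0.73 for conventional dendritic cell and −0.03 and −0.81 for epithelial markers.

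Markers of other cell types were summed on the linear scale in the same samples. The sum over the 10 T and NK transcripts was 3201 to 6164 in tumour-free and 2943 to 3218 in tumour-bearing CD206+ KCs, ranges that just overlapped, and 2868 to 3565 against 1941 to 2100 in CD206hi KCs, which did not. B cell markers were lower too. Their sum was 17438 to 18003 against 9243 to 9845 in CD206+ KCs, with 5 of 10 genes tested called lower. In CD206hi KCs it was 11742 to 15793 against 8662 to 8822, with 3 of 12 called lower. Of all genes tested, 0.998% were called lower in CD206+ and 2.03% in CD206hi KCs. *Cd79a*, a chain of the B cell receptor complex, fell in both subsets, with differences of −1.18 and −1.08 (limma adjusted p = 0.00687 and 0.0115). KC marker sums were 1636810 to 2273810 without and 1200450 to 1280880 with tumour in CD206+ KCs, with 3 of 12 called lower. In CD206hi KCs they overlapped, at 871372 to 1306380 against 802721 to 923440, with none of 12 called by limma. Of these 12, 3 were lower and 1 higher at an unadjusted limma p under 0.05, against 8.57% and 12.5% of all genes. The difference of *Clec4f* was −0.79 in CD206+ and −0.58 in CD206hi KCs (limma adjusted p = 0.0925 and 0.119).

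Hepatocyte markers were lower with tumour, 6 of 8 called in each subset. Endothelial markers had 7 of 8 and 8 of 8 means lower, with 0 and 2 called. Among all genes tested, 0.998% and 2.03% were called lower in CD206+ and CD206hi KCs, and 47.9% and 47.7% had a lower mean. All tested monocyte, neutrophil and epithelial markers had higher means with tumour. Of the epithelial markers 7 of 7 tested were called in each subset, against 2.55% and 5.21% of all genes called higher. *Krt19*, a keratin of duct and tumour epithelium, rose with differences of 5.25 and 5.36 (limma adjusted p = 9.56e-05 and 0.000183). The part of these changes in the lower T and NK values was not tested. In the *Id3* table the sum of the 10 transcripts was 763 to 866 in Id3f/f and 821 to 840 in Clec4fCreId3f/f KCs. There 0 of 9 B cell markers tested were called by limma, against 6.44% of all genes. Likewise 0 of them had an unadjusted limma p under 0.05, against 23.6% of all genes.

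**Figure D5:**
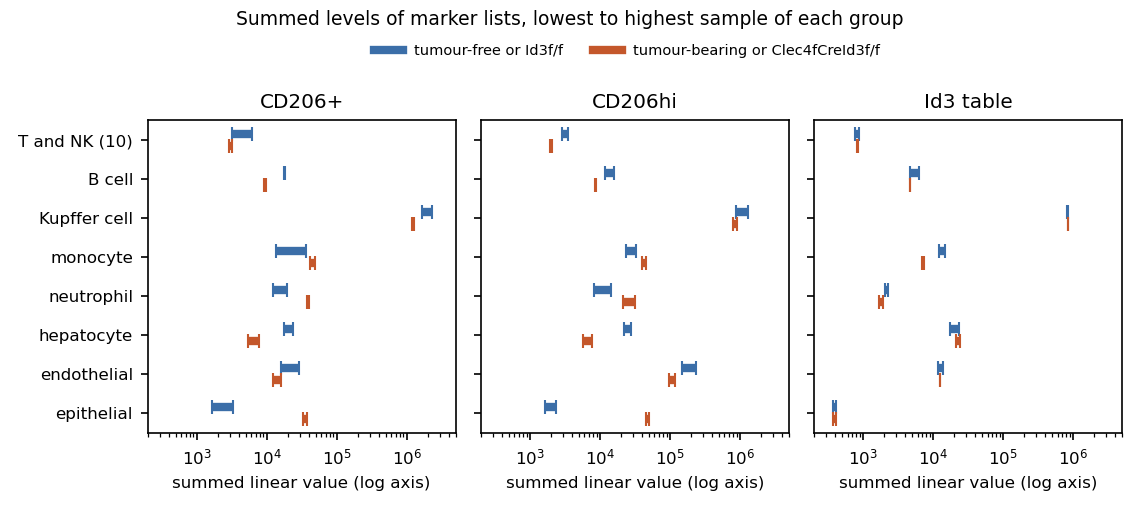
Summed linear values (horizontal log axis) of the 10 T and NK transcripts and of 7 marker lists, each bar running from the lowest to the highest sample of a group, in the CD206+, CD206hi and *Id3* tables. Blue is tumour-free or Id3f/f and orange is tumour-bearing or Clec4fCreId3f/f. The T and NK sums and the B cell sums lie lower with tumour, and the monocyte, neutrophil and epithelial sums higher.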

How the data were processed

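RNA of sorted mouse KCs was amplified with a SMART-Seq kit and sequenced in 17 samples. The authors aligned reads with STAR 2.7.10a, counted them with HTSeq and used DESeq2, per the processing notes, which name mm10. Each of the 3 deposited tables holds log2 values for 25124 genes with the features of a regularized log transformation made by the authors within the table, although the columns are named as TPM. A count test was not possible. Rows without reads numbered 7370, 5764 and 8447 in the CD206+, CD206hi and *Id3* tables.

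Here samples were grouped by their labels and each comparison was fitted within its table in R 4.3.3 by limma 3.58.1 (trended variance, p adjusted by Benjamini-Hochberg) over all genes that passed the filter. Read totals per library are not known, so precision was judged from the spread between samples, and the labels do not say that replicates come from separate animals. The p-values measure the spread between these samples only. The fit was also run on simulated data with independent noise. The planted changes were larger than any difference of the members, so that run does not show how smaller ones are detected. Samples with the same replicate number deviated together in CD206+ KCs (correlations across genes of 0.35, 0.56 and 0.15). They did not in CD206hi KCs (−0.05, −0.13 and −0.05) or in the *Id3* table (−0.07 and −0.10). The main fits were unpaired, and the replicate number entered as a block only in an alternative. No label pairs the samples, so calls with the block rest on a pairing read from the same values.

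Genes named by rule are the 10 members, the 5 with the most similar deviations, and genes of the 3 wider lists. The latter were called or were among the top 3 of a list by level. *Cd79a* and *Krt19* fell outside this rule, as single examples of their lists that were not set in advance. The members and lists were chosen with earlier results of these data known. Alternatives were no filter, a filter at a mean of 50 counts, no trend, median centring, quantile normalization, the replicate block and each sample left out in turn. The correlation without tumour-free CD206+ samples was added after the data were seen. Gene positions and exon lengths were those of GENCODE on GRCm38, and promoters were those of RefSeq on GRCm38.p6. Figures were drawn with matplotlib 3.10.9 in Python 3.11.15.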

Additional observations from a re-analysis of the deposited data

How the results depend on the processing

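The number of the 10 transcripts called lower with tumour was 0 as reported in both subsets. In CD206+ KCs it was 0 without the filter, with the stricter filter, without the trend, after median centring, after quantile normalization and with the replicate block, and 0 to 3 when each sample was left out in turn. In CD206hi KCs it was 0 with either filter setting and with the block, 3 without the mean-variance trend (*Cd3e*, *Klrb1c* and *Nkg7*), 1 after median centring (*Nkg7*), 6 after quantile normalization (the 3 CD3 chains, *Cd2*, *Klrb1c* and *Nkg7*) and 0 to 5 when each sample was left out. Lower calls over all genes were 2.07%, 2.66% and 3.56% in the settings without trend, with median centring and with quantile normalization, against 2.03%. Both centring methods moved the median difference of all genes in that table from 0.03 to −0.13 and −0.11, and that of the members from −0.71 to −0.87 and −0.98. No member was called higher in any of these settings, and in the *Id3* table none was called in any of 11. The signs of the members' differences were kept in every setting run, except for *Prf1* in CD206hi KCs, which went from −0.02 to 0.07, 0.21 and 0.17 when replicates 1 or 3 of the tumour-free or 1 of the tumour-bearing group were left out in turn, and ranged from −0.35 to 0.21 over samples left out. The cause of these shifts was not tested.

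With the replicate block, which in the *Id3* table drops Id3f/f replicate 3, no member crossed the threshold. For the wider lists the block gave 7 lower and 3 higher in CD206+ KCs, 1 and 2 in CD206hi KCs and 4 and 0 in the *Id3* table, against 1 and 2, 2 and 3, and 2 and 0 without it. Lower calls over all genes with the block were 3.09%, 1.44% and 8.14% in the 3 tables, against 0.998%, 2.03% and 3.37% without it. Samples of the same number did not deviate together in CD206hi KCs or the *Id3* table, and no label pairs samples in any table. Over all settings the wider counts ran from 0 to 7 lower and 0 to 3 higher in CD206+ KCs, 0 to 9 and 0 to 6 in CD206hi KCs, and 0 to 4 lower in the *Id3* table. Calls of single genes of these lists kept their sign in every setting, but their adjusted p passed 0.05 in some. *Srgn* in CD206+ KCs and *Sh2d1b1* in CD206hi KCs each lost the call in 9 of 12 settings, and *Klrk1* and *Srgn* in the *Id3* table lost it in 3 and 2 of 11, in each case when either Clec4fCreId3f/f sample was left out and for *Klrk1* also without Id3f/f replicate 1. Low level limits the *Id3* comparison, where shrinkage holds the values of *Cd3d*, *Cd2* and *Ncr1* close together.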

Other observations

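Dendritic cell markers, listed because plasmacytoid dendritic cells share several transcripts with NK cells, were measured in the same samples. Of 6 plasmacytoid markers 0 were called by limma in CD206+ or CD206hi KCs, against 3.54% and 7.23% of all genes. None had an unadjusted limma p under 0.05, against 17.2% and 21.1% of all genes. Their summed linear values were 333 to 585 without tumour and 502 to 566 with it in CD206+ KCs. In CD206hi KCs these sums were 490 to 1030 and 619 to 720. The sums of 6 conventional dendritic cell markers also overlapped between tumour-free and tumour-bearing samples in both subsets.

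Of the granzyme genes outside the 10, *Gzmd*, *Gzmf* and *Gzmg* were listed at 0 in every sample of the 3 tables. *Gzmk* had means of 4.76 and 4.71 in CD206+ and 4.29 and 3.98 in CD206hi KCs without and with tumour, and was not called in either. *Cd8a* was at 7.90 and 7.38 in CD206+ KCs, and at 6.70 and 6.82 in CD206hi KCs, so that its mean did not move one way in the 2 subsets, and neither difference was called (limma adjusted p = 0.562 and 0.732). *Gzmk* and *Cd8a* were picked with their values in view.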
